A study of Homo sapiens with 12 samples.

Results

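The 39 interferon-stimulated genes examined here were chosen by symbol, with earlier results of these data known. They were located as rows of a count table of 60664 genes. All 39 were found, and all 39 were among the 17544 genes that passed the filter on low counts. The messenger RNA came from MDA-MB-231 cells, a line from a human breast tumour of the triple-negative kind, labelled wild type. They were held for 24 h at pH 6.4, at pH 6.9 or at pH 7.4, and each acidity has 4 libraries. The cells of every group were 1 line, kept in high-glucose DMEM with serum at pH 7.4 before the change of medium, so the neutral medium is the control. The sample labels give pH 6.9 for the intermediate medium while the protocol gives pH 6.7, and pH 6.9 is used below. The libraries of a medium are numbered repeats 1 to 4, a word that does not state separate cultures, so the p-values measure only the spread between these libraries. The study's title concerns acidosis, hypoxia and the dissemination of cancer cells, and all libraries analysed here carry an acidity label with no oxygen label.

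Interferons are secreted proteins that warn cells of infection. Type I and type III interferons bind their receptors and, through Janus kinases, assemble a factor, with STAT2 and IRF9 among its subunits, that binds the interferon-stimulated response element of many promoters. The products detect foreign nucleic acid, degrade or mask viral RNA, block virus entry and tag proteins with ISG15. Some tumour lines keep part of this program on without added interferon.

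Expression is given as CPM, a gene's share of the reads of its library on a common scale, adjusted by TMM, which aligns libraries on the bulk of their genes. Fold changes are on the log2 scale, and ± gives their standard error (SE), or the SD over the 4 libraries of a medium where it follows a level in CPM. A gene was called when the Benjamini-Hochberg adjusted p of edgeR's quasi-likelihood test, over all tested genes, was under 0.05. Library totals ran between 21060767 and 50643233 reads. Repeat 1 at pH 7.4 had reads in 17841 genes and repeat 2 at pH 6.9 in 21628, against 23113 to 27384 in the other 10 libraries, and results are given with and without the first of these. All 6 markers of the line exceeded 1 CPM in every medium, and 1 of 7 leukocyte markers did. The leukocyte list summed to 1.85 to 3.16 CPM at pH 6.4, 3.21 to 5.18 CPM at pH 6.9 and 3.86 to 6.53 CPM at pH 7.4, with CD3E and NKG7 at 0. The fibroblast list summed to 22.1 to 26.9 CPM at pH 6.4, 30.4 to 36.2 CPM at pH 6.9 and 42.6 to 49.0 CPM at pH 7.4, with 3 of 4 markers over 1 CPM, all but DCN. The 6 markers of the line summed to 6127 to 6931 CPM at pH 6.4, 5385 to 5877 CPM at pH 6.9 and 5028 to 5456 CPM at pH 7.4, and at pH 6.4 against pH 7.4 CAV1 fell and the other 5 rose. The 7 luminal markers summed to 93.0 to 114 CPM at pH 6.4, 118 to 123 CPM at pH 6.9 and 119 to 134 CPM at pH 7.4, and CDH1 fell. The 4 endothelial markers summed to 13.4 to 17.7 CPM at pH 6.4, 10.96 to 13.6 CPM at pH 6.9 and 9.19 to 17.3 CPM at pH 7.4. The part of these shifts in the results below was not tested.

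At pH 6.4 against pH 7.4, 19 of the 39 genes fell, 18 were not called, and the 2 that rose were neighbouring genes of 1 family. The genes that fell include the RNA sensor TLR3, the ubiquitin-like protein ISG15, all 4 OAS genes, all 4 IFIT genes, MX1 and both SAMD9 genes. IFITM1 and IFITM2, which code for membrane proteins that hinder virus entry, rose. The 19 are 48.7% of the group, where 14.7% of all tested genes were called lower, and the 2 are 5.13%, where 15.6% of all tested genes were called higher. Since the genes were chosen with earlier results of these data known, these shares describe the list and do not test it. The median log2 fold change over the 39 genes was -0.53, against -0.00083 over all tested genes. Without repeat 1 at pH 7.4, 18 genes were called lower (14.6% of all tested genes) and 2 higher (15.1% of all tested genes), with a median of -0.51. UBE2L6 and OASL were then not called and IFI6 was. In bulk RNA, fewer cells with these transcripts and less of them per cell cannot be told apart.

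Counted by library instead of by test, the pH 6.4 and pH 7.4 libraries did not overlap for 15 genes that were lower at pH 6.4, 38.5% of the group, where 13.5% of all tested genes were separated in this way. The 2 genes separated upward were IFITM1 and IFITM2, or 5.13% of the group, where the share of all tested genes was 14.4%.

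**Figure D1:**
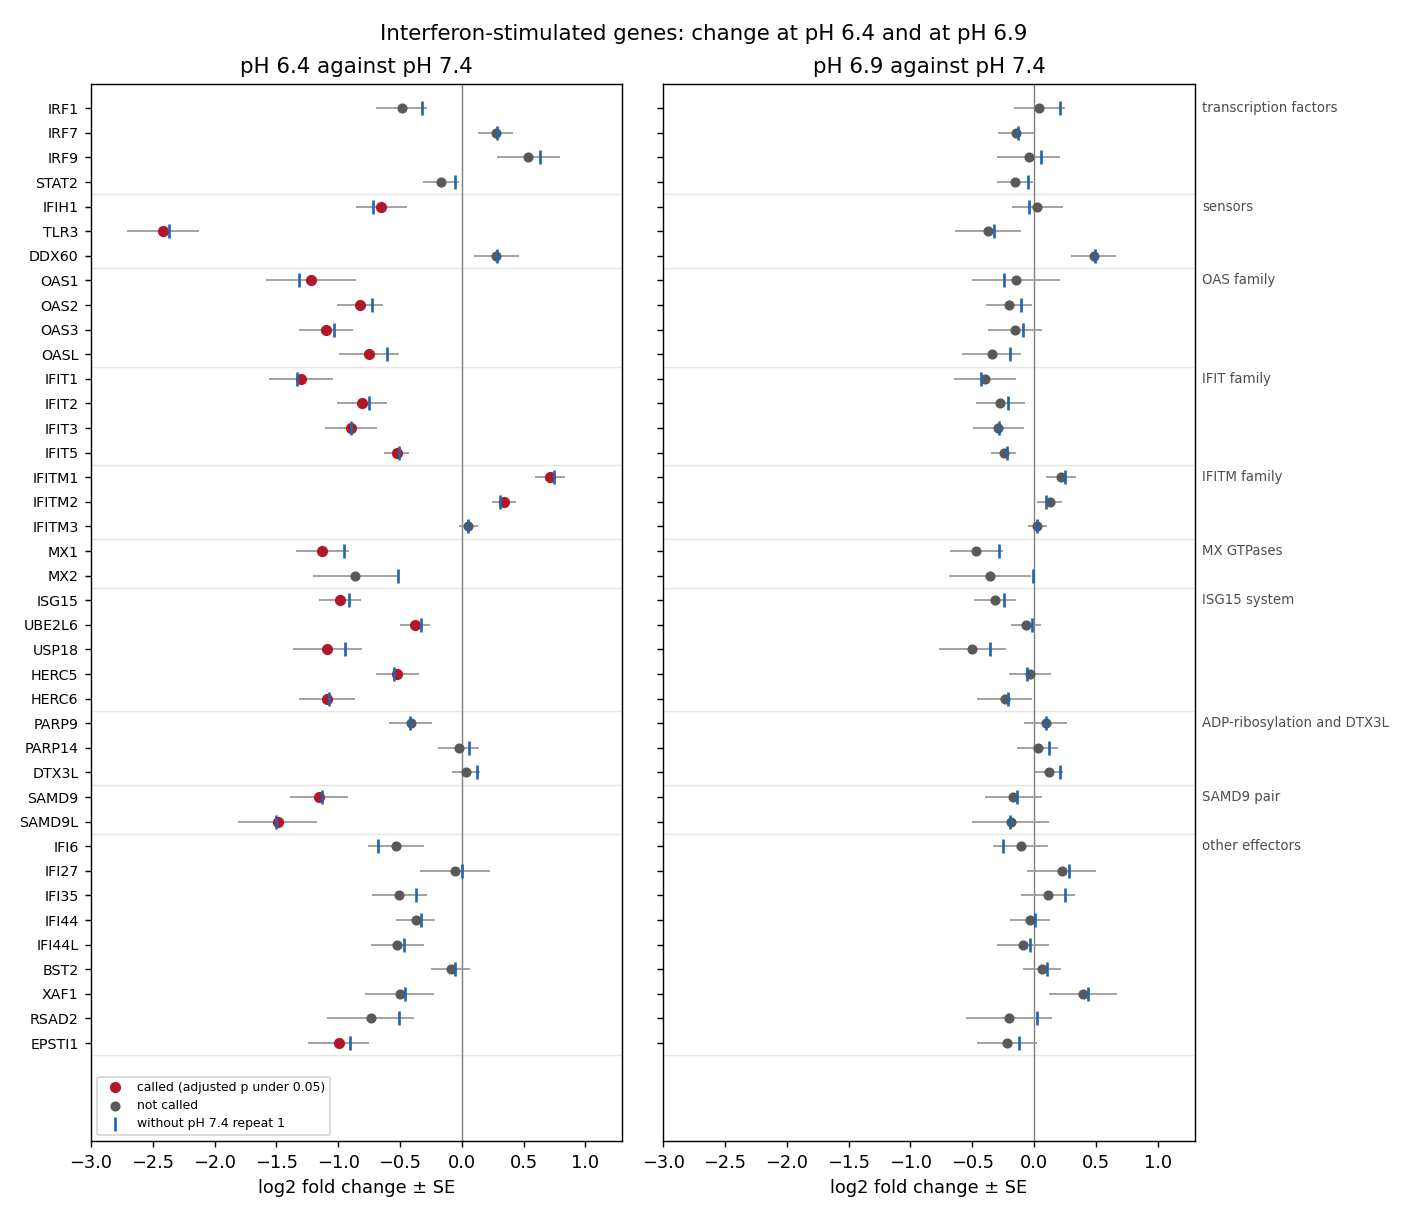
Log2 fold change (horizontal axis) of each of the 39 genes (rows, by role) at pH 6.4 against pH 7.4 (left) and at pH 6.9 against pH 7.4 (right), with bars for the standard error and blue ticks for the value without repeat 1 at pH 7.4. Red points mark the 19 genes called lower and the 2 called higher at pH 6.4; no point is red at pH 6.9.

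Promoter windows were searched for motifs that interferon signalling is known to act through. The core of the interferon-stimulated response element, written GAAA, any 2 bases, GAAA, was searched on both strands (TTTC, any 2 bases, TTTC on the other strand) in RefSeq windows of 300 bases, 250 before to 50 after the transcription start, on GRCh38.p14. It was present in 1255 of 35116 windows of all genes, or 3.57%. Windows were at hand for 32 of the 39 genes, and 21 of these, or 65.6%, held it. By call at pH 6.4 these were 11 of 15 genes called lower, 1 of 1 called higher and 9 of 16 not called. A second motif, the gamma-activated site TTCNNNGAA, was in 11 of the 32 windows, or 34.4%, against 7.66% of all windows, and in 4 of them a match overlapped one of the first motif. IRF7, OAS2, OASL, IFIT2, IFITM2, MX2 and USP18 were not in the table of windows. A match is a stretch of letters and not a measured binding site.

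The windows below are those of the 6 genes with the largest falls at pH 6.4 among the called genes holding the core, followed by IFITM1, which was added after its values were seen because it rose. Capitals mark the core on either strand, and each line reads 5′ to 3′ along the gene's own strand.
TLR3 promoter, chr4:186068906-186069205, plus strand: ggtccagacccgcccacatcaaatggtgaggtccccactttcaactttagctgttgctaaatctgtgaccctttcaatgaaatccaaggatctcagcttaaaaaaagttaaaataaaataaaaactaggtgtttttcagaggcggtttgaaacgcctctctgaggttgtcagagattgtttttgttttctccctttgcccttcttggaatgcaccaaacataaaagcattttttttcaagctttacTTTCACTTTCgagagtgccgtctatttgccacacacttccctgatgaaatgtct
IFIT1 promoter, chr10:89392373-89392672, plus strand: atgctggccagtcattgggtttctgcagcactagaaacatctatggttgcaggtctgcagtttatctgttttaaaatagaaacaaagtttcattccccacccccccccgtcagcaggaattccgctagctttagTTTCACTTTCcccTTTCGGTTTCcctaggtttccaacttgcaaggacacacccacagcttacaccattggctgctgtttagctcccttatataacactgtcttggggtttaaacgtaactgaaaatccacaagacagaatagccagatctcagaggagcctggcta
SAMD9 promoter, chr7:93117930-93118229, minus strand: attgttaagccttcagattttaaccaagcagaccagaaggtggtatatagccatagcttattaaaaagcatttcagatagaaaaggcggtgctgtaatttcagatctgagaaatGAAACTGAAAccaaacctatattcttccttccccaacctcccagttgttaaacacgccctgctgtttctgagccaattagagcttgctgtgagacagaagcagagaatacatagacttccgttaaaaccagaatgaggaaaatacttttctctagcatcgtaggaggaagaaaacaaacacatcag
MX1 promoter, chr21:41420308-41420607, plus strand: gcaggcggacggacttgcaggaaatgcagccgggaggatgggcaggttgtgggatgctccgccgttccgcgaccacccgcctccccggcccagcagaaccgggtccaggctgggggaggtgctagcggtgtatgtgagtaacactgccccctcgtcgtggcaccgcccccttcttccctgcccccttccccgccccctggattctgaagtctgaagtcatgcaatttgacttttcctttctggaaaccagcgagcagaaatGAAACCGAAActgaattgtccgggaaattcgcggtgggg
OAS3 promoter, chr12:112938224-112938523, plus strand: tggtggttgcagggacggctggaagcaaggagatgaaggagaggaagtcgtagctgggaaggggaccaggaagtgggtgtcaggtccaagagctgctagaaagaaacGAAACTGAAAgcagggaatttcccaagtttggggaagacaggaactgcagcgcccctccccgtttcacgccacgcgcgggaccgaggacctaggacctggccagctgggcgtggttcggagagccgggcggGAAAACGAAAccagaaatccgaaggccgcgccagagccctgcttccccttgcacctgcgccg
EPSTI1 promoter, chr13:42992192-42992491, minus strand: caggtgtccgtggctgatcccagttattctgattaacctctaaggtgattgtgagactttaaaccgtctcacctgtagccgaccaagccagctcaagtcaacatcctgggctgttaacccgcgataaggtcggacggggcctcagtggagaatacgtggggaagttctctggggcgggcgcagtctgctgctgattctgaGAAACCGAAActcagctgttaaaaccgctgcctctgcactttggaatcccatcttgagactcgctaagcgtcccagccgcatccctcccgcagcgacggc
IFITM1 promoter, chr11:313790-314089, plus strand: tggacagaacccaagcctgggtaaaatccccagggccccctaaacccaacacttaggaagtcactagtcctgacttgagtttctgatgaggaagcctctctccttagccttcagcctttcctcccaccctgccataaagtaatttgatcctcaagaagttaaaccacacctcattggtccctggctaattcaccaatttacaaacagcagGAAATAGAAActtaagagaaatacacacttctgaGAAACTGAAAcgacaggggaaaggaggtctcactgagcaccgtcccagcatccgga
In these 7 windows the first base of the core lies between positions -143 and 12, with the transcription start as the first positive position and no position 0. IFITM1, which rose, has 2 cores, as have IFIT1 and OAS3, which fell.

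Sensors of foreign RNA showed the largest single change. TLR3 (ENSG00000164342, chr4:186069152-186088069, plus strand), the endosomal receptor for double-stranded RNA, had 1.61, 1.06, 2.90 and 0.993 CPM at pH 6.4, 7.74, 5.89, 7.61 and 6.08 CPM at pH 6.9, and 9.70, 9.99, 8.75 and 6.91 CPM at pH 7.4. Every pH 6.4 library lay below every library of the other media, and repeat 3 was the highest of the pH 6.4 libraries. The log2 fold change at pH 6.4 against pH 7.4 was -2.42 ± 0.29, adjusted p = 6.6e-05, a 5.34-fold lower level, and -2.37, adjusted p = 0.00024, without repeat 1 at pH 7.4. TLR3 was called in all 23 alternative settings, and it was the only member called lower both within repeats 1 and 2 and within repeats 3 and 4.

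IFIH1 (ENSG00000115267, chr2:162267079-162318703, minus strand), which codes for MDA5, the cytosolic sensor of long double-stranded RNA, had 15.1, 11.5, 17.1 and 7.57 CPM at pH 6.4, 24.4, 20.1, 21.0 and 16.8 CPM at pH 6.9, and 17.2, 20.8, 24.4 and 18.6 CPM at pH 7.4. All pH 6.4 libraries were below all pH 7.4 libraries, by a narrow margin between repeat 3 at pH 6.4 and repeat 1 at pH 7.4. The change was -0.65 ± 0.21, adjusted p = 0.0268, and -0.72, adjusted p = 0.0248, without repeat 1 at pH 7.4. The call was lost without any of 4 other libraries, namely repeat 2 or 4 at pH 6.4 (adjusted p = 0.0755 and 0.0571) and repeat 2 or 3 at pH 7.4 (adjusted p = 0.0541 and 0.0764). DDX60, a helicase of the antiviral response, was not called at pH 6.4 (0.28 ± 0.18, adjusted p = 0.276), where repeats 1 and 3 lay above and repeats 2 and 4 below all pH 7.4 libraries.

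None of the 4 transcription factors in the group was called at pH 6.4. IRF1, a factor strongly induced by interferon gamma, averaged 42.4 ± 10.5 CPM at pH 6.4, 61.2 ± 12.9 CPM at pH 6.9 and 59.4 ± 16.1 CPM at pH 7.4, a change of -0.49 ± 0.21, adjusted p = 0.0902. IRF1 shares 18.4% of its 75-base stretches with transcripts of other genes, so its counts are uncertain. STAT2, a subunit of the factor that binds the response element, averaged 101 ± 13.5 CPM at pH 6.4, 102 ± 16.1 CPM at pH 6.9 and 114 ± 21.4 CPM at pH 7.4, a change of -0.17 ± 0.14, adjusted p = 0.428. IRF9, its DNA-binding partner, averaged 3.02 ± 0.849 CPM at pH 6.4, 2.01 ± 0.466 CPM at pH 6.9 and 2.08 ± 0.305 CPM at pH 7.4 (0.54 ± 0.25, adjusted p = 0.126), and 40.9% of its 75-base stretches are shared with an overlapping transcript, so its counts are uncertain. IRF7, which amplifies interferon transcription, averaged 15.9 ± 3.03 CPM at pH 6.4, 11.9 ± 1.75 CPM at pH 6.9 and 13.1 ± 0.447 CPM at pH 7.4 (0.27 ± 0.14, adjusted p = 0.17). The libraries of all 4 overlapped between the media. With the repeat number as a block, which removes differences shared by libraries of 1 number, IRF1 (-0.48, adjusted p = 0.00127) and STAT2 (-0.16, adjusted p = 0.0416) were called lower. For both genes repeats 1 and 2 were higher than repeats 3 and 4 within pH 6.9 and pH 7.4.

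All 4 genes of the OAS family fell. Their enzymes make short linked adenylates in the presence of double-stranded RNA, while OASL lacks this activity. OAS3 (ENSG00000111331, chr12:112938352-112973249, plus strand) had 14.9, 9.99, 24.1 and 11.7 CPM at pH 6.4, 31.9, 22.2, 29.8 and 33.1 CPM at pH 6.9, and 36.6, 29.1, 31.2 and 33.1 CPM at pH 7.4. All pH 6.4 libraries were below all pH 7.4 libraries, with a change of -1.10 ± 0.22, adjusted p = 0.00205, and -1.03, adjusted p = 0.0066, without repeat 1 at pH 7.4. OAS2 (ENSG00000111335, chr12:112978395-113011723, plus strand) had 25.4, 15.8, 32.7 and 17.3 CPM at pH 6.4, 39.5, 30.8, 36.0 and 34.1 CPM at pH 6.9, and 48.1, 37.1, 38.5 and 37.8 CPM at pH 7.4. The groups again did not overlap, and the change was -0.82 ± 0.19, adjusted p = 0.00489, or -0.73, adjusted p = 0.0152, without repeat 1 at pH 7.4, which was the highest of its group.

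OAS1 (ENSG00000089127, chr12:112906777-112933222, plus strand) had 1.71, 0.928, 3.13 and 0.822 CPM at pH 6.4, 4.54, 3.29, 3.71 and 2.45 CPM at pH 6.9, and 3.02, 3.95, 5.07 and 3.52 CPM at pH 7.4. Repeat 3 at pH 6.4 lay just above the lowest pH 7.4 library, so the groups overlapped. The change was -1.22 ± 0.36, adjusted p = 0.02, and it was not called without repeat 2 or 4 at pH 6.4 (adjusted p = 0.0644 and 0.0568) or repeat 3 at pH 7.4 (adjusted p = 0.0569). OASL (ENSG00000135114, chr12:121019111-121039242, minus strand) had 37.1, 20.2, 37.0 and 16.9 CPM at pH 6.4, 47.1, 30.7, 40.2 and 29.7 CPM at pH 6.9, and 60.4, 43.1, 46.8 and 37.1 CPM at pH 7.4. All pH 6.4 libraries were below the pH 7.4 libraries, repeats 1 and 3 only just and repeats 2 and 4 by far. Its change of -0.75 ± 0.24, adjusted p = 0.0301 was -0.60, adjusted p = 0.0862, without repeat 1 at pH 7.4 and was likewise not called without repeat 2 or 4 at pH 6.4 (adjusted p = 0.0952 and 0.0822) or repeat 3 at pH 7.4 (adjusted p = 0.0532).

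The 4 IFIT genes, whose products bind viral RNA and hold back its translation, all fell, and for each of them the pH 6.4 libraries were all below the pH 7.4 libraries. IFIT1 (ENSG00000185745, chr10:89392546-89406486, plus strand) had 99.5, 56.7, 145 and 52.1 CPM at pH 6.4, 179, 130.0, 200.5 and 152 CPM at pH 6.9, and 204, 199, 249 and 219 CPM at pH 7.4. Repeat 3 at pH 6.4 kept the most and repeats 2 and 4 the least, and the change was -1.30 ± 0.26, adjusted p = 0.00185, or -1.33, adjusted p = 0.00421, without repeat 1 at pH 7.4. IFIT3 (ENSG00000119917, chr10:89327894-89340971, plus strand) had 188, 116, 217 and 94.8 CPM at pH 6.4, 272, 199, 259 and 208 CPM at pH 6.9, and 285, 261, 325 and 274 CPM at pH 7.4, a change of -0.89 ± 0.21, adjusted p = 0.00516. As for IFIT1, repeat 3 was the highest of the pH 6.4 libraries and repeat 1 the next.

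IFIT2 (ENSG00000119922, chr10:89283694-89309276, plus strand) had 124, 90.2, 109 and 53.1 CPM at pH 6.4, 168, 129, 142 and 107 CPM at pH 6.9, and 184, 168, 167 and 139.9 CPM at pH 7.4, a change of -0.81 ± 0.20, adjusted p = 0.00794. Here repeat 1 was the highest pH 6.4 library and repeat 4 the lowest by a wide gap. IFIT2 shares 6.88% of its 75-base stretches with an overlapping transcript. IFIT5 (ENSG00000152778, chr10:89414586-89421001, plus strand) had 49.4, 44.6, 54.3 and 37.8 CPM at pH 6.4, 53.6, 55.2, 60.5 and 57.0 CPM at pH 6.9, and 69.9, 64.1, 68.4 and 66.0 CPM at pH 7.4, a change of -0.53 ± 0.10, adjusted p = 0.00141. IFIT5 changed least of the 4 but varied least between libraries, and it was the only member whose pH 6.9 libraries also lay all below the pH 7.4 libraries. Without repeat 1 at pH 7.4 the 3 changes were -0.90, adjusted p = 0.0113 for IFIT3, -0.75, adjusted p = 0.0216 for IFIT2 and -0.51, adjusted p = 0.00402 for IFIT5, all called.

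The related GTPases MX1 and MX2 bind viral nucleoprotein complexes or capsids. MX1 (ENSG00000157601, chr21:41420304-41459214, plus strand) had 17.9, 11.7, 18.8 and 9.35 CPM at pH 6.4, 27.5, 22.7, 22.4 and 18.8 CPM at pH 6.9, and 42.6, 30.7, 28.2 and 25.0 CPM at pH 7.4. All pH 6.4 libraries were below all libraries of the other media, narrowly so at pH 6.9, and repeat 1 was the highest at pH 7.4. The change was -1.13 ± 0.22, adjusted p = 0.00156, and -0.95, adjusted p = 0.00499, without that library. MX2, its neighbour, averaged 4.54 ± 2.09 CPM at pH 6.4, 6.47 ± 0.939 CPM at pH 6.9 and 8.31 ± 3.83 CPM at pH 7.4 and was not called (-0.86 ± 0.34, adjusted p = 0.0658); the estimate was -0.52, adjusted p = 0.229 without repeat 1 at pH 7.4, which held 13.6 CPM, while the other libraries at pH 7.4 held at most 8.15 CPM. With the repeat block MX2 was called lower (-0.87, adjusted p = 0.0136).

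The ISG15 system attaches and removes a small ubiquitin-like protein, and all 5 of its genes in the group fell. ISG15 itself (ENSG00000187608, chr1:1001138-1014540, plus strand) had 51.2, 36.6, 55.9 and 32.5 CPM at pH 6.4, 80.2, 64.0, 76.9 and 59.5 CPM at pH 6.9, and 99.4, 85.9, 95.3 and 68.3 CPM at pH 7.4. All pH 6.4 libraries were below all libraries of the other media. The change was -0.98 ± 0.17, adjusted p = 0.000771, and -0.91, adjusted p = 0.00275, without repeat 1 at pH 7.4. HERC6 (ENSG00000138642, chr4:88378739-88443111, plus strand), the human relative of the ligase that attaches ISG15 in mice, had 24.3, 13.6, 33.1 and 15.1 CPM at pH 6.4, 46.2, 29.3, 42.8 and 37.7 CPM at pH 6.9, and 47.8, 43.6, 48.2 and 44.3 CPM at pH 7.4. Its pH 7.4 libraries were close together and all above the pH 6.4 libraries, which were spread widely, with a change of -1.09 ± 0.23, adjusted p = 0.00267, or -1.07, adjusted p = 0.00707, without repeat 1 at pH 7.4.

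HERC5 (ENSG00000138646, chr4:88457117-88506163, plus strand), the main human ISG15 ligase, had 62.6, 42.9, 73.7 and 36.0 CPM at pH 6.4, 86.0, 70.8, 76.7 and 68.7 CPM at pH 6.9, and 73.1, 77.8, 84.8 and 73.5 CPM at pH 7.4. Repeat 3 at pH 6.4 was within the pH 7.4 range and repeats 2 and 4 were far below it. Its change of -0.52 ± 0.17, adjusted p = 0.0343 was not called without repeat 2 or 4 at pH 6.4 (adjusted p = 0.109 and 0.0868) or repeat 2 or 3 at pH 7.4 (adjusted p = 0.0624 and 0.0797). Without repeat 1 at pH 7.4 it was -0.55, adjusted p = 0.0454. UBE2L6 (ENSG00000156587, chr11:57551656-57568284, minus strand), the enzyme that passes ISG15 to the ligase, had 31.8, 26.4, 32.5 and 24.9 CPM at pH 6.4, 38.98, 33.8, 39.1 and 31.5 CPM at pH 6.9, and 41.0, 41.7, 36.0 and 31.5 CPM at pH 7.4. The groups overlapped at the top of the pH 6.4 range. Its change of -0.38 ± 0.12, adjusted p = 0.0302 was -0.33, adjusted p = 0.0681, without repeat 1 at pH 7.4, and it was also lost without repeat 2 or 4 at pH 6.4 (adjusted p = 0.0898 and 0.093) or repeat 2 at pH 7.4 (adjusted p = 0.0853).

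USP18 (ENSG00000184979, chr22:18149899-18177397, plus strand), which removes ISG15 from proteins and restrains the type I receptor, was rare, with 1.24, 0.863, 1.55 and 0.891 CPM at pH 6.4, 1.39, 1.73, 1.73 and 2.03 CPM at pH 6.9, and 3.11, 1.67, 2.33 and 2.61 CPM at pH 7.4. The pH 6.4 libraries were all below the pH 7.4 libraries, the nearest being repeat 3 at pH 6.4 and repeat 2 at pH 7.4. The change was -1.09 ± 0.28, adjusted p = 0.00888, and -0.94, adjusted p = 0.0161, without repeat 1 at pH 7.4. USP18 shares 18.3% of its 75-base stretches with USP41, so part of its reads could belong to that copy.

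In the IFITM family 2 of 3 genes rose. IFITM1 (ENSG00000185885, chr11:313506-315272, plus strand) had 16.2, 14.2, 15.5 and 15.0 CPM at pH 6.4, 9.72, 12.04, 11.97 and 9.53 CPM at pH 6.9, and 9.87, 9.22, 8.80 and 9.21 CPM at pH 7.4. Every pH 6.4 library was above every library of the other media. The change was 0.71 ± 0.12, adjusted p = 0.00061, and 0.75, adjusted p = 0.000959, without repeat 1 at pH 7.4. IFITM2 (ENSG00000185201, chr11:307631-315272, plus strand) had 30.9, 32.2, 34.1 and 35.1 CPM at pH 6.4, 23.9, 31.7, 30.5 and 27.9 CPM at pH 6.9, and 24.4, 25.7, 27.2 and 27.1 CPM at pH 7.4. Its pH 6.4 libraries were all above the pH 7.4 libraries, with a change of 0.34 ± 0.10, adjusted p = 0.0182, which was 0.31, adjusted p = 0.0398, without repeat 1 at pH 7.4. IFITM2 was called in 19 of 23 alternative settings. It was not called without repeat 4 at pH 6.4 (adjusted p = 0.0556) or when libraries were scaled by their totals alone (adjusted p = 0.0707). Nor was it called within repeats 1 and 2 (adjusted p = 0.163) or within repeats 3 and 4 (adjusted p = 0.0776).

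IFITM3 averaged 127 ± 5.05 CPM at pH 6.4, 125 ± 9.03 CPM at pH 6.9 and 122 ± 7.60 CPM at pH 7.4, a change of 0.054 ± 0.075, adjusted p = 0.635. The 3 genes lie side by side, and 23.9% to 29.8% of their 75-base stretches are shared with other genes. Those are the other IFITM genes and also AC116049.1 for IFITM2 and AC136475.5 for IFITM3. The annotated exons of IFITM1 and IFITM2 overlap on the same strand. No source used here says how reads that match more than 1 gene were counted, so the split between the 3 is uncertain.

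SAMD9 and SAMD9L, neighbouring genes whose large cytoplasmic proteins restrict viruses and slow cell growth, both fell. SAMD9L (ENSG00000177409, chr7:93130055-93148369, minus strand) had 41.8, 18.5, 68.8 and 20.2 CPM at pH 6.4, 104, 70.1, 109 and 85.1 CPM at pH 6.9, and 103, 93.5, 119.5 and 104 CPM at pH 7.4. All pH 6.4 libraries were below all others, and within pH 6.4 repeat 3 was far above repeats 2 and 4. The change was -1.49 ± 0.32, adjusted p = 0.00312, a 2.81-fold lower level, and -1.501, adjusted p = 0.00715, without repeat 1 at pH 7.4. SAMD9 (ENSG00000205413, chr7:93099513-93118023, minus strand) had 60.7, 34.6, 89.5 and 37.6 CPM at pH 6.4, 126, 86.8, 120.5 and 109 CPM at pH 6.9, and 129.9, 111, 135 and 121 CPM at pH 7.4. Its pH 6.4 libraries were all below the pH 7.4 libraries, with a change of -1.16 ± 0.23, adjusted p = 0.00216, or -1.13, adjusted p = 0.00615, without repeat 1 at pH 7.4.

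**Figure D2:**
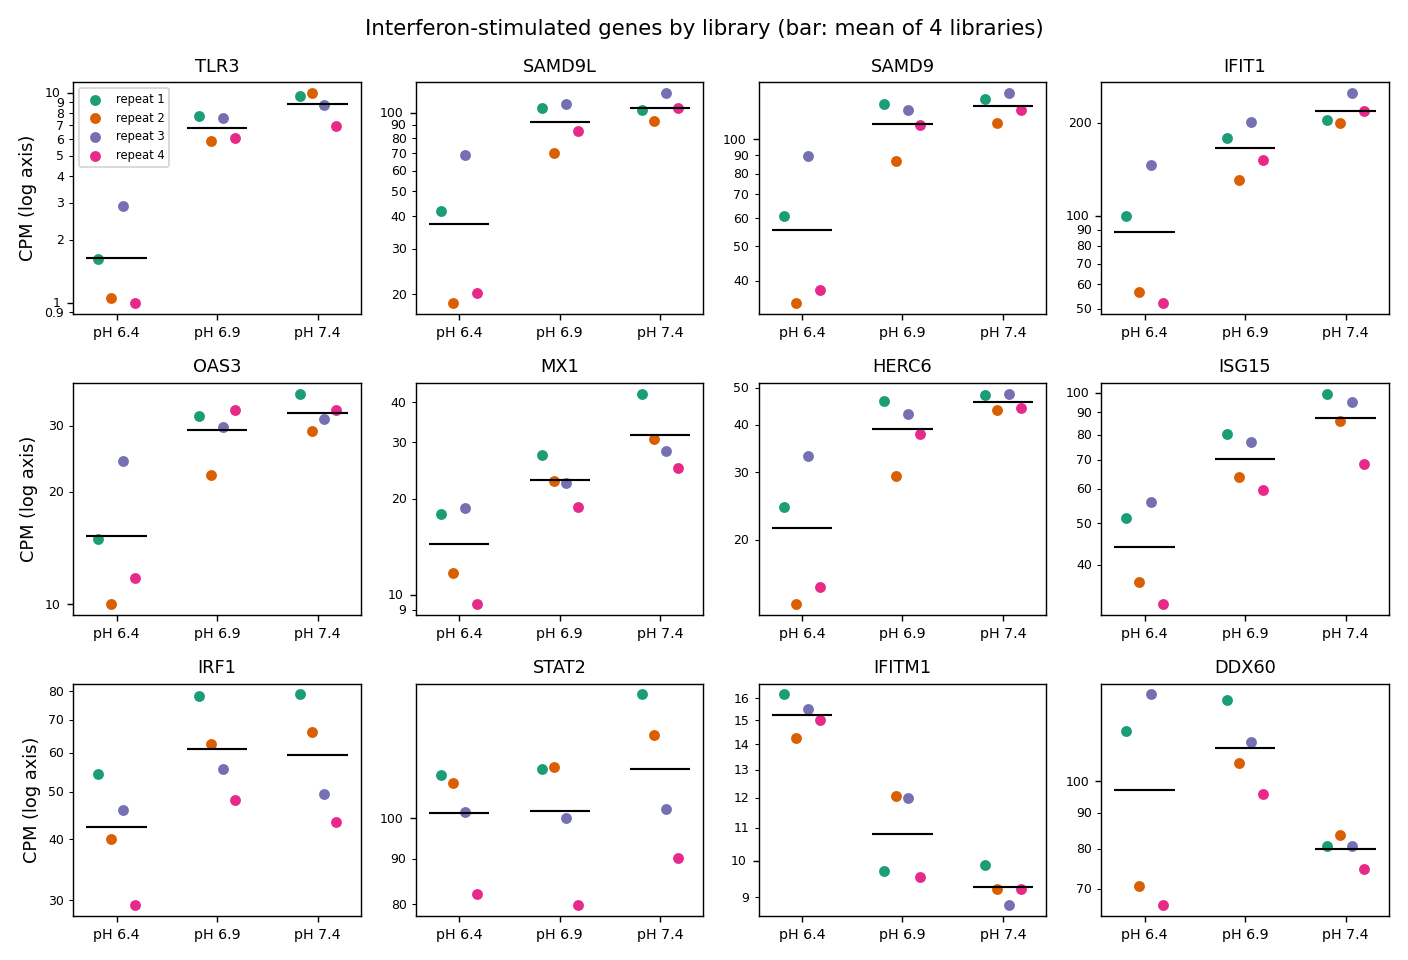
CPM on a log axis of 12 of the genes in each library at pH 6.4, pH 6.9 and pH 7.4, with a colour for each repeat number and a bar for the mean of 4 libraries. TLR3 has 0.993 to 2.90 CPM at pH 6.4, below all other libraries, while IFITM1 has 14.2 to 16.2 CPM at pH 6.4, above all others.

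Among the other effectors, EPSTI1 (ENSG00000133106, chr13:42886388-42992271, minus strand), an interferon-inducible gene first described in epithelial cells next to stroma, was the 1 gene of 9 that was called. It had 4.24, 2.55, 6.24 and 3.25 CPM at pH 6.4, 7.60, 5.95, 7.97 and 6.502 CPM at pH 6.9, and 9.61, 8.17, 9.03 and 5.80 CPM at pH 7.4. Repeat 3 at pH 6.4 was above the lowest pH 7.4 library, and the other pH 6.4 libraries were below all of them. The change was -0.996 ± 0.25, adjusted p = 0.00765, and -0.90, adjusted p = 0.0197, without repeat 1 at pH 7.4. The 8 others, from RSAD2 to IFI27, had estimates of -0.74 to -0.055.

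IFI6, a membrane protein, averaged 2.80 ± 0.437 CPM at pH 6.4, 3.77 ± 0.593 CPM at pH 6.9 and 4.07 ± 1.09 CPM at pH 7.4 and was not called (-0.53 ± 0.22, adjusted p = 0.0844) but was called lower without repeat 1 at pH 7.4 (-0.68, adjusted p = 0.0188). IFI44L, IFI44, IFI35 and RSAD2, the last coding for viperin, which makes a chain-ending nucleotide, were not called but were with the repeat block, at -0.56, -0.40, -0.53 and -0.79. BST2, which tethers budding virus to the cell, averaged 59.8 ± 9.65 CPM at pH 6.4, 66.6 ± 11.3 CPM at pH 6.9 and 63.7 ± 12.4 CPM at pH 7.4 (-0.090 ± 0.16, adjusted p = 0.711). IFI27, a mitochondrial protein, averaged 37.1 ± 10.4 CPM at pH 6.4, 44.9 ± 16.1 CPM at pH 6.9 and 38.5 ± 13.9 CPM at pH 7.4 (-0.055 ± 0.28, adjusted p = 0.91).

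No gene of the ADP-ribosylation set was called. PARP9, which works with the ubiquitin ligase DTX3L, averaged 18.7 ± 5.38 CPM at pH 6.4, 26.7 ± 3.37 CPM at pH 6.9 and 24.9 ± 2.81 CPM at pH 7.4 (-0.41 ± 0.17, adjusted p = 0.0863), and was called lower with the repeat block (-0.45, adjusted p = 0.0155). DTX3L averaged 47.7 ± 5.34 CPM at pH 6.4, 50.5 ± 5.60 CPM at pH 6.9 and 46.5 ± 5.97 CPM at pH 7.4 (0.036 ± 0.11, adjusted p = 0.851) and PARP14 averaged 82.4 ± 19.8 CPM at pH 6.4, 85.6 ± 17.0 CPM at pH 6.9 and 83.9 ± 11.7 CPM at pH 7.4 (-0.025 ± 0.17, adjusted p = 0.933).

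At pH 6.9 no member was called against pH 7.4, in either direction, by edgeR in the model of 3 media without a block or by DESeq2. At an unadjusted p under 0.05 edgeR had 1 gene higher and 2 lower, and the share of all tested genes at that limit was not counted. Across all tested genes 0.313% were called higher and 0.41% lower in this comparison, so a count of 0 among 39 is close to what the whole table gives. Estimates lay between -0.50 and 0.48, with a median of -0.14, against 0.0093 over all tested genes. Without repeat 1 at pH 7.4 the median was -0.047, again with no call (0.184% of all tested genes higher and 0.234% lower).

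The groups did not overlap for 2 genes in this comparison, DDX60, which was higher at pH 6.9, and IFIT5, which was lower. Each is 2.56% of the group, while over all tested genes the shares were 5.18% higher and 4.91% lower. DDX60 had 131, 106, 114 and 95.7 CPM at pH 6.9, against 80.7, 83.7, 80.6 and 74.7 CPM at pH 7.4, an estimate of 0.48 ± 0.19, adjusted p = 0.292. It was called when only these 2 media entered the fit. IFIT5, whose values are given above, had an estimate of -0.25 ± 0.10, adjusted p = 0.329. TLR3 (-0.37 ± 0.27, adjusted p = 0.655), MX1 (-0.47 ± 0.21, adjusted p = 0.403) and ISG15 (-0.31 ± 0.17, adjusted p = 0.505) had estimates below 0 with overlapping groups. With the repeat number as a block ISG15 was called lower (-0.31, adjusted p = 0.0376), where 2.44% of all tested genes were. In this comparison the number was otherwise taken as a name only.

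Against pH 6.9, 12 of the genes fell at pH 6.4, or 30.8%, where 8.2% of all tested genes were called lower. They were TLR3, SAMD9L, SAMD9, OAS3, IFIT1, XAF1, HERC6, EPSTI1, IFIH1, ISG15, MX1 and OAS2. IFITM1 alone rose, or 2.56%, where 8.83% of all tested genes were called higher. This comparison shares the pH 6.4 libraries with the one against pH 7.4. Without repeat 1 at pH 7.4, 13 genes were called lower (10.9% of all tested genes), OAS1 being the addition, and 1 higher (10.5% of all tested genes). For 4 genes, TLR3, MX1, ISG15 and SAMD9L, the pH 6.4 libraries were all below the pH 6.9 libraries. That is 10.3% of the group, close to the 10.8% of all tested genes so separated, so by this count the group did not stand out. For IFITM1 they were all above, or 2.56% of the group, where the share of all tested genes was 9.64%.

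Among the genes called, the largest difference was again that of TLR3, at -2.05 ± 0.29, adjusted p = 0.00195, followed by SAMD9L at -1.30 ± 0.32, adjusted p = 0.0146, SAMD9 at -0.99 ± 0.23, adjusted p = 0.0124 and OAS3 at -0.94 ± 0.22, adjusted p = 0.0118. These 4 and IFITM1 (0.49 ± 0.12, adjusted p = 0.0132) were called in every fit that left out 1 of the 12 libraries. Their adjusted p-values were then at most 0.0497. Without the filter on low counts SAMD9L and SAMD9 were not called (adjusted p = 0.0901 and 0.0726). ISG15 (-0.67 ± 0.17, adjusted p = 0.0169) lost its call without repeat 2 or 4 at pH 6.4 or repeat 1 at pH 6.9 (adjusted p = 0.0641, 0.0546 and 0.052). HERC6, IFIT1, IFIH1, OAS2, EPSTI1, XAF1 and MX1 lost theirs without repeat 2 or 4 at pH 6.4, without repeat 1 or 3 at pH 6.9 and in some cases without others, with adjusted p-values of at most 0.154. So 4 genes were called lower without repeat 2 at pH 6.4, 4 without repeat 4 at pH 6.4, 4 without repeat 1 at pH 6.9, 5 without repeat 3 at pH 6.9 and 8 without repeat 2 at pH 6.9, while 21 were without repeat 3 at pH 6.4. The share of all tested genes called lower moved likewise, to 2.86%, 3.04%, 4.04%, 4.53% and 5.49% in the first 5 of these fits and 13.8% in the last, against 8.2% with all libraries.

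XAF1 (ENSG00000132530, chr17:6755447-6775647, plus strand), which binds the apoptosis inhibitor XIAP, was called in this comparison only. It had 12.1, 6.93, 20.0 and 6.95 CPM at pH 6.4, 25.8, 18.2, 24.8 and 17.2 CPM at pH 6.9, and 17.7, 17.9, 16.0 and 13.7 CPM at pH 7.4. Its pH 6.9 libraries reached higher than its pH 7.4 libraries, and repeat 3 at pH 6.4 lay above all pH 7.4 libraries and within the pH 6.9 range. The difference was -0.90 ± 0.28, adjusted p = 0.0402 against pH 6.9 and -0.50 ± 0.28, adjusted p = 0.193 against pH 7.4. With the repeat block XAF1 was called lower against pH 7.4 as well (-0.62, adjusted p = 0.0342). An antisense transcript shares 32.8% of its 75-base stretches, so its counts are uncertain.

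Libraries of 1 repeat number tended to deviate together, and the repeat block changed several calls. Over all tested genes, 10 of the 12 libraries were best matched in another medium by a library of their own number. The exceptions were repeat 1 at pH 7.4, best matched by a repeat 2, and repeat 2 at pH 7.4, best matched by a repeat 1. Against pH 7.4 it gave 28 genes lower and 2 higher at pH 6.4, adding IFI44L, IFI44, RSAD2, PARP9, IRF1, STAT2, XAF1, IFI35 and MX2 to the 19. Across all tested genes 20.2% were then called lower and 21.4% higher. Against pH 6.9 it gave 24 genes lower and 3 higher, adding IFI44, RSAD2, PARP9, HERC5, IRF1, UBE2L6, IFIT5, IFIT3, IFIT2, OAS1, OASL and IFI35 below and IRF7 and IFITM2 above. The share of all tested genes called lower was then 15% and the share called higher 16.1%.

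The group as a whole differed between libraries of the same medium. The median deviation of the 39 genes from their 12-library means was -0.13, -0.64, 0.021 and -0.86 log2 CPM in repeats 1 to 4 at pH 6.4. It was 0.36, 0.057, 0.20 and -0.089 at pH 6.9 and 0.37, 0.29, 0.29 and 0.075 at pH 7.4. Repeats 2 and 4 at pH 6.4 stood far below every other library, and repeat 3 at pH 6.4 lay within the pH 6.9 range. Over all tested genes the same median stayed between -0.054 and 0.032.

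**Figure D3:**
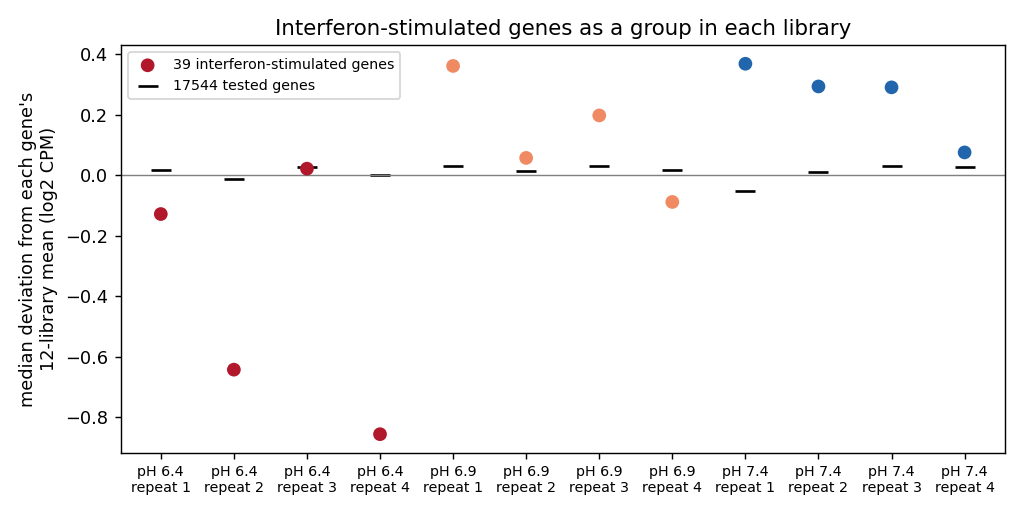
Median deviation of the 39 genes (points) and of the 17544 tested genes (bars) from each gene's mean over the 12 libraries, in log2 CPM (vertical axis), for each library (horizontal axis). Points lie between -0.86 and 0.021 at pH 6.4, with repeats 2 and 4 lowest, while the bars stay near 0.

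Repeat 4 at pH 6.4 was the lowest of the 12 libraries for 23 of the 39 genes and repeat 2 at pH 6.4 for 8, while repeat 1 at pH 7.4 was the highest for 15. Of the 19 genes called lower, 17 had repeat 3 as their highest pH 6.4 library and 2 had repeat 1. Leaving out repeat 3 at pH 6.4 gave 25 genes called lower against pH 7.4, and leaving out repeat 2 or repeat 4 at pH 6.4 gave 14 each. The share of all tested genes called lower moved the same way, to 17.6% without repeat 3, 9.99% without repeat 2 and 10.3% without repeat 4, against 14.7% with all libraries. Without repeat 3 at pH 6.4 and repeat 1 at pH 7.4 together, a setting added after the values were seen, 25 were called lower (19.9% of all tested genes) and 3 higher (19.4% of all tested genes), with a median log2 fold change of -0.75.

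Within repeats 1 and 2 alone, 20 genes were called lower and 1 higher at pH 6.4 against pH 7.4, where 9.86% of all tested genes were called lower and 12.2% higher. Within repeats 3 and 4 alone, 1 gene was called lower, TLR3, and 1 higher, IFITM1, where 4.12% of all tested genes were called lower and 4.78% higher. There 13 of the 39 genes were lower at an unadjusted p under 0.05. The share of all tested genes at that looser limit was not counted, so the 13 cannot be set against it. The median log2 fold change was -0.63 in repeats 1 and 2 and -0.52 in repeats 3 and 4. Each of these sets has 2 libraries per medium, so the fits rest on fewer samples. TLR3 changed by -2.88 in repeats 1 and 2 and -1.95 in repeats 3 and 4, IFIT1 by -1.36 and -1.23, and MX1 by -1.30 and -0.90.

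**Figure D4:**
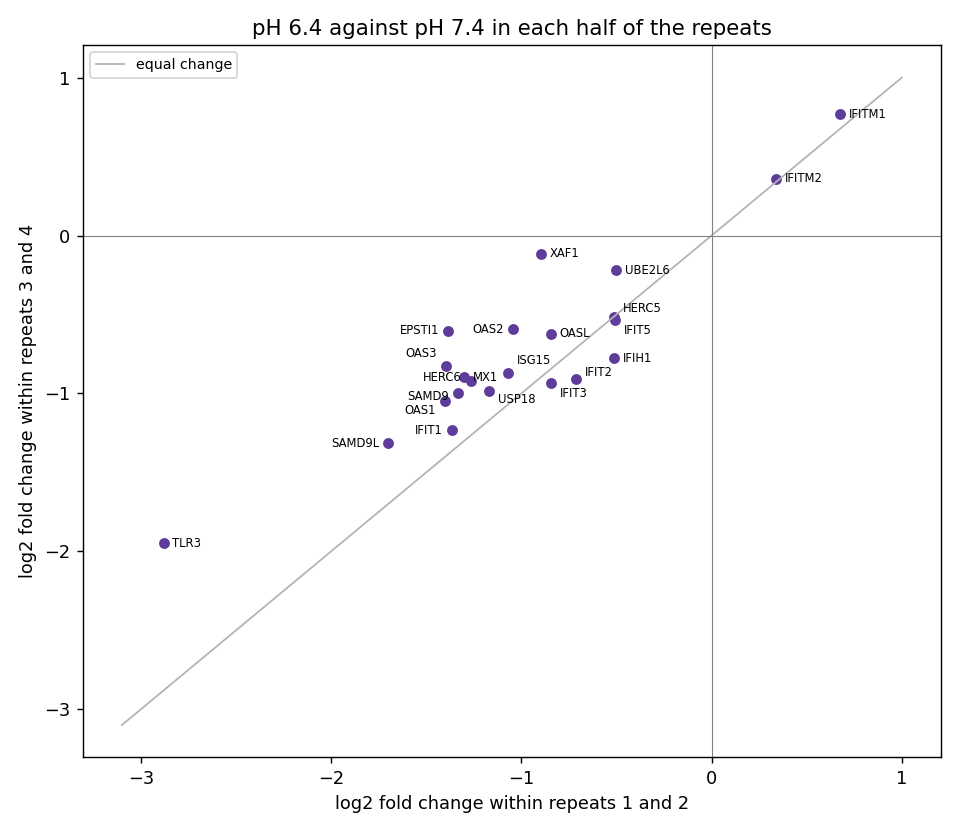
Log2 fold change at pH 6.4 against pH 7.4 of the 22 genes called in any comparison, estimated within repeats 1 and 2 (horizontal axis) and within repeats 3 and 4 (vertical axis); the line marks equal change. TLR3 lies lowest in both sets, at -2.88 and -1.95, and IFITM1 and IFITM2 are the only points above 0 in both.

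Genes above the interferon-stimulated genes in the pathway were examined from lists of their own. No interferon gene passed the filter on low counts. Of 21 ligand genes listed, 18 had no read in any library, IFNB1 and IFNG among them, and the others, IFNL1, IFNL2 and IFNL3, had at most 2 reads in a library. A count of 0 allows up to 3 reads, or 0.0595 to 0.14 CPM by library, and covers counting error only.

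Of 11 receptor and kinase or STAT genes, 3 rose (27.3%) and 1 fell (9.09%) at pH 6.4 against pH 7.4, where 15.6% of all tested genes were called higher and 14.7% lower. Those 2 shares also stand behind the lists below. IFNAR1, a chain of the type I interferon receptor, fell to 55.3 ± 5.74 CPM at pH 6.4, against 76.2 ± 3.30 CPM at pH 7.4 (-0.46 ± 0.084, adjusted p = 0.00106), and its pH 6.4 libraries were all below the pH 7.4 libraries. IFNGR2, a chain of the interferon gamma receptor, rose, with 98.7 ± 15.5 CPM at pH 6.4, against 70.3 ± 9.46 CPM at pH 7.4 (0.49 ± 0.13, adjusted p = 0.00922). STAT3 rose as well, with 224 ± 40.4 CPM at pH 6.4, against 163 ± 8.40 CPM at pH 7.4 (0.46 ± 0.11, adjusted p = 0.00559), and so did the kinase JAK1, with 208 ± 25.3 CPM at pH 6.4, against 172 ± 6.58 CPM at pH 7.4 (0.27 ± 0.093, adjusted p = 0.0397), which was not called without repeat 1 at pH 7.4 (adjusted p = 0.0566).

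Of 18 genes for other nucleic acid sensors and adaptors 14 were tested, and 5 rose (35.7%) and 2 fell (14.3%). Counts without repeat 1 at pH 7.4 were 7 and 2, STING1 and DDX58 being the additions that rose. TRIM25 (0.40 ± 0.063, adjusted p = 0.000415) and RNF135 (0.47 ± 0.12, adjusted p = 0.0103), ubiquitin ligases that act on RIG-I, rose, as did IFI16 (0.37 ± 0.098, adjusted p = 0.0114), a sensor of DNA, and MAVS (0.25 ± 0.069, adjusted p = 0.0134), the mitochondrial adaptor that MDA5 signals through. The other 3, the factor IRF3, which rose, and the kinase IKBKE and the adaptor MYD88, which fell, are named after their values were seen. IKBKE, which phosphorylates IRF3, had 14.3 ± 5.14 CPM at pH 6.4, against 24.1 ± 4.23 CPM at pH 7.4 (-0.75 ± 0.21, adjusted p = 0.0138). Of 8 negative regulators 1 rose, the phosphatase gene PTPN11 (0.37 ± 0.10, adjusted p = 0.014).

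A list of 38 further interferon-inducible genes, of which 36 were tested, had 7 called higher (19.4%) and 8 lower (22.2%), with a median of -0.050. HELZ2, a helicase, rose, with 74.4 ± 12.1 CPM at pH 6.4, against 40.9 ± 2.22 CPM at pH 7.4 (0.86 ± 0.11, adjusted p = 8.46e-05). WARS1, a tryptophanyl-tRNA synthetase (0.48 ± 0.083, adjusted p = 0.000802), and the nuclear body protein SP100 (0.36 ± 0.078, adjusted p = 0.00364) rose too. SAMHD1, which depletes deoxynucleotides, fell, with 67.3 ± 13.4 CPM at pH 6.4, against 97.6 ± 2.28 CPM at pH 7.4 (-0.54 ± 0.12, adjusted p = 0.00382). Without repeat 1 at pH 7.4 the list had 6 called higher and 7 lower.

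Levels between the genes were compared per length, as TPM, in which CPM is divided by the exon length in GENCODE and rescaled to a common total. This length joins all annotated exons of a gene, and it was 13047 bases for MX2, 10240 for IFI44L and 941 for ISG15. The ranking below therefore depends on the annotation as well as on the reads. Averaged over the 12 libraries, IFITM3 was the most abundant of the 39, at 341 TPM, followed by IFIT3 at 316.6 TPM, ISG15 at 265 TPM and BST2 at 209.6 TPM. The rarest were IFI44L at 1.61 TPM, MX2 at 1.84 TPM, OAS1 at 2.27 TPM and IRF9 at 2.29 TPM. IFIT3 alone stood at 212 ± 87.7 TPM at pH 6.4, 332 ± 47.5 TPM at pH 6.9 and 406 ± 33.0 TPM at pH 7.4. Genes that fell were found at both ends of this range, as IFIT3 and OAS1 show.

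Of the 39 genes 21 lie in 8 clusters of neighbours at most 200 kb apart, in GENCODE coordinates on GRCh38. In 4 clusters every member fell, namely the IFIT genes at chr10:89283694-89421001, OAS1, OAS3 and OAS2 at chr12:112906777-113011723, HERC6 and HERC5 at chr4:88378739-88506163, and SAMD9 and SAMD9L at chr7:93099513-93148369. In the cluster of MX2 and MX1 at chr21:41361943-41459214, MX1 fell. In the IFITM cluster at chr11:307631-327537, 2 of 3 members rose. PARP9, DTX3L and PARP14 at chr3:122527924-122730840 and IFI44L and IFI44 at chr1:78619922-78664078 had no called member. Members of a cluster are not independent of each other in position, and related copies may share reads.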

How the data were processed

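The 12 libraries were made from poly(A) RNA with a stranded kit for a NextSeq500 sequencer, per the labels' protocols. The submitters' processing notes name STAR, featureCounts and the build GRCh38.p13 (hg38). Their versions, the strand option and how reads with several matches were handled are not given in the sources used. The authors deposited 1 table of raw counts, as reads per gene in each library. Tests on the counts used R 4.3.3 and edgeR 4.0.16 (filterByExpr, TMM, robust glmQLFit and glmQLFTest) in 1 model of 3 media with 9 residual degrees of freedom, or 8 without repeat 1 at pH 7.4. P-values were Benjamini-Hochberg adjusted over all tested genes within each of the 3 comparisons, with DESeq2 1.42.0 as an alternative. The biological coefficient of variation was 0.198. The script was tested on simulated data. No 2 libraries were copies, since at least 22391 genes differed in count in each of 66 pairs.

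The genes, their roles and the pathway and marker lists were chosen with earlier results of these data known. Values in every library are given for genes called in at least 1 comparison, and for pathway lists the called genes with up to 4 smallest adjusted p-values at pH 6.4 against pH 7.4 are named. Between pH 6.4 and either other medium, libraries of the same repeat number deviated from their group means together over all tested genes. The correlations were 0.113 to 0.47, all over 0.1, which comes from the data and not from the labels. The main fits had no term for the repeat number, so their p-values and calls are unpaired in all 3 comparisons. The number was taken to pair libraries of pH 6.4 with the other media only in the repeat block, an alternative given beside the main fits. Between pH 6.9 and pH 7.4 repeat 1 had 0.0798, under 0.1, while repeats 2, 3 and 4 had 0.16, 0.277 and 0.352. The low pair holds the pH 7.4 library with the fewest detected genes. The number was taken as a name only in this comparison, a choice that does not show the libraries to be unpaired. Over the 39 genes alone, repeats 1 to 4 had correlations of 0.17, 0.64, 0.571 and 0.624 between pH 6.9 and pH 7.4. Between pH 6.4 and pH 7.4 the same values were 0.471, 0.448, 0.42 and 0.421. Alternatives were DESeq2, other scalings and filters, the 2 compared media alone, the repeat block, repeats 1 and 2 or 3 and 4 alone, and leaving out libraries. Promoter windows are from RefSeq on GRCh38.p14, coordinates, exon lengths and overlaps from GENCODE, and shared sequence was counted as 75-base stretches of a gene's exons found in another gene on either strand.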

Additional observations from a re-analysis of the deposited data

Results flagged for a closer look

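Each of the 39 genes was examined for a library far from the other 3 of its medium, which made 117 groups, and 1 was found. OAS2 had 48.1 CPM in repeat 1 at pH 7.4, against 37.1 to 38.5 CPM in the other libraries of that medium and its gap to the nearest of them took up 0.876 of the group's range, past Dixon's limit for 4 values. Chance alone marks about 1 in 20 groups. The same library had reads in the fewest genes of the 12. OAS2 was called lower at pH 6.4 with and without it, at -0.82 and -0.73.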

How the results depend on the processing

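The fall at pH 6.4 against pH 7.4 kept a median log2 fold change of -0.71 to -0.44 when 1 library was left out. Those fits called 14 to 25 genes lower and 1 to 3 higher. Over all tested genes they called 9.99% to 17.6% lower and 11.2% to 18.2% higher. DESeq2 gave 20 lower and 2 higher (14.9% and 15.8% of all tested genes). Without the filter on low counts 16 were called lower (6.12% of all tested genes), HERC5, IFIT2 and OASL being lost. The 2 media alone also gave 16 lower (11.6% of all tested genes), IFIH1, HERC5 and UBE2L6 being lost. Library size only scaling, which moved the median of all genes to -0.081, left 1 called higher (12.2% of all tested genes). The fits within repeats 1 and 2 and within repeats 3 and 4 each left 1 called higher as well (12.2% and 4.78%). Within repeats 3 and 4 there was 1 called lower (4.12%). Repeats 3 and 4 alone rest on fewer samples. For pH 6.9 against pH 7.4, the 2 media alone gave 1 called higher, DDX60, where 0.656% of all tested genes were. The repeat block gave 1 called lower (ISG15, -0.31, adjusted p = 0.0376), where 2.44% of all tested genes were. Leaving out 1 library gave 0 in both directions. Over all tested genes those fits called 0.067% to 0.86% higher and 0.151% to 0.848% lower. For pH 6.4 against pH 6.9, leaving out 1 library gave 4 to 21 lower and 1 to 3 higher, and a median of -0.68 to -0.35. Over all tested genes the shares were 2.86% to 13.8% lower and 3.68% to 13.8% higher. There DESeq2 gave 2 higher and 18 lower (13% and 11.7% of all tested genes) and the 2 media alone 6 lower (7.29%). Without the filter on low counts 9 were called lower (3.17%). HERC6, SAMD9L, SAMD9, IFIT1, XAF1 and MX1 were then lost. The repeat block gave 24 lower and 3 higher (15% and 16.1%), and repeats 1 and 2 alone 0 higher (5.82%). Repeats 3 and 4 alone gave 0 lower and 0 higher, where 0% of all tested genes were called either way. At an unadjusted p under 0.05 they had 4 lower and 2 higher, and the share of all tested genes at that limit was not counted. The setting without pH 7.4 repeat 1 and pH 6.4 repeat 3 gave 23 lower and 3 higher (17.9% and 16.6%). The cause of these moves was not tested.

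For the 22 genes called in any comparison, no estimate at pH 6.4 changed sign against pH 7.4 or pH 6.9. At pH 6.9 against pH 7.4, 14 of their estimates did, none of them called (lowest adjusted p = 0.919). Of the 17 other genes, 5 changed sign in at least 1 setting at pH 6.4 against pH 7.4 (BST2, DTX3L, IFI27, IFITM3 and PARP14), 11 at pH 6.9 against pH 7.4 and 4 at pH 6.4 against pH 6.9, at values of -0.11 to 0.20 and with none called. OAS1 was 0.17 within repeats 1 and 2, OAS3 0.021 without the 2 libraries with few genes, and HERC5 0.059 within repeats 1 and 2. IFIH1 was -0.18 within repeats 3 and 4, -0.030 without the 2 libraries with few genes and -0.038 without pH 7.4 repeat 1 and pH 6.4 repeat 3. UBE2L6 was 0.063 within repeats 3 and 4 and 0.0043 without the 2 libraries with few genes. Leaving out 1 library gave -0.30 to 0.0012 for OAS1, -0.063 to 0.13 for IFIH1 and -0.097 to 0.016 for HERC5. In this comparison the repeat number was taken as a name only. The replicate block changed no other call beyond those named in the results. The depth of 21060767 reads or more left the rarest of the genes, such as OAS1 and USP18, with counting error added to the spread between libraries.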
